A study of Mus musculus with 6 samples.

Results

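The 56 genes described here encode the machinery of mitosis: its kinases and cyclins, the motors and cross-linkers of the spindle, the kinetochore, condensin and the proteins that let the cell leave mitosis. They were chosen by name in the mRNA table, where the transcripts of each symbol were summed, and all 56 were found among 21912 symbols. The data were FPKM (sequenced fragments scaled to transcript length and to library size) of total RNA from cultured mouse macrophages, in 3 libraries labelled M (M 1 to M 3) and 3 labelled control (control 1 to control 3). The series concerns macrophages made into lipid-laden foam cells with ox-LDL, an oxidised lipoprotein particle of the kind found in atherosclerotic plaques. Only the control titles carry a treatment word, and the shared protocol calls the cells of all 6 libraries ox-LDL induced, so that M stands for the ox-LDL group is a reading of the titles. The sources used here give neither dose, time, strain nor the origin of the macrophages. They do not say whether replicates came from different cultures, and each p-value is set by how far libraries of a group differ, which may be technical variation.

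Mitosis is driven by the kinase CDK1 bound to B-type cyclins, which sets off chromosome condensation and spindle assembly. Kinetochores, built on the centromere, hold the chromosomes to spindle microtubules, and the spindle checkpoint keeps the anaphase-promoting complex (APC/C) inactive until all are attached. The APC/C with CDC20 then marks securin and cyclin B for destruction, and the cell divides. Most of these genes are transcribed mainly in the G2 and M phases, so that in a culture their RNA follows the cells that are cycling. Macrophage cultures differ in this: cell lines and bone marrow cultures with growth factor divide, whereas resident macrophages mostly rest.

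Many late cell cycle genes carry a short promoter element called the cell cycle genes homology region (CHR), which the MuvB complex contacts through its LIN54 subunit, often with CCAAT boxes, to which NF-Y binds. RefSeq promoter windows (build GRCm38.p6, 250 bases before to 50 after the start site) were matched for 47 of the 56 members, giving 52 windows. The letters TTTGAA or TTCGAA, on either strand, were found in 39 of the 52 windows (75%), against 14% of 10191 windows of the genes tested for expression and 19.2% of all 32851 windows. CCAAT, on either strand, was in 75% of the member windows against 38.2% and 37.4%, and CHR together with CCAAT in 65.4% against 5.77% and 7.52%. In 1 case the letters of a CHR and a CCAAT match overlapped. The windows below belong to the most abundant member with a CHR match among the kinases, kinesins, kinetochore genes and exit genes, and are shown because they carry this common element. Capitals mark CHR and CCAAT matches on either strand.
Bub1b, chr2:118597961-118598260, strand +: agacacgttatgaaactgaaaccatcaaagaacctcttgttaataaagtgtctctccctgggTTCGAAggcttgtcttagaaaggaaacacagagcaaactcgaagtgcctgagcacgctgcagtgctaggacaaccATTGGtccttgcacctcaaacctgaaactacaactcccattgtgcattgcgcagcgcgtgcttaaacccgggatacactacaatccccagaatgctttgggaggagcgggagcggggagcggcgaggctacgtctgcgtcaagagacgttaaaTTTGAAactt
Kif23, chr9:61946750-61947049, strand -: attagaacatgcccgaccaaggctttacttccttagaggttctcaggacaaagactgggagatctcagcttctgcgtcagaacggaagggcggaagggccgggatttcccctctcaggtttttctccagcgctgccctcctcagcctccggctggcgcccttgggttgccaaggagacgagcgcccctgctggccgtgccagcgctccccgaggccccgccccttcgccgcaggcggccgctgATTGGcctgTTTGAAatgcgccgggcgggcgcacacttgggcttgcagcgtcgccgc
Bub3, chr7:131560120-131560419, strand +: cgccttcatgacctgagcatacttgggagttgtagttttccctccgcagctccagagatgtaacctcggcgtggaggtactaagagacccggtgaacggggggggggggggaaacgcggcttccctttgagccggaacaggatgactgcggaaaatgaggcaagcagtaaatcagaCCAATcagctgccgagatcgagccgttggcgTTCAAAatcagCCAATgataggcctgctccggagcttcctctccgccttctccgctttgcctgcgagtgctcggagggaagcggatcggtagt
Ube2c, chr2:164769679-164769978, strand +: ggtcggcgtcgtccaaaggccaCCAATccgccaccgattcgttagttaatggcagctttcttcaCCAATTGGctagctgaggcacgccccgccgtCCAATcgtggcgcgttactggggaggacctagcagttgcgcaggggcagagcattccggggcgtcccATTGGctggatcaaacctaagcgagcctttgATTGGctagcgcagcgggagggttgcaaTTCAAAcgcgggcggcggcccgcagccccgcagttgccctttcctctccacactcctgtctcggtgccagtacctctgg
Counted from the start site, where the first transcribed base is 1, the CHR match of Kif23 began at 3, that of Bub3 at -43 and that of Ube2c at -29. Bub3 has a further window with another start site, from which the same match began at -167. Bub1b had matches at -188 and 41. Ube2c held 6 CCAAT matches, Bub3 held 2, and Kif23 and Bub1b held 1 each. In Ube2c the matches at -186 and -183 overlap on opposite strands, as the letters CCAATTGG. Members with a CHR match in a window numbered 36, with a median log2 fold change of -0.51, and the 11 without had a median of -0.43, ranges -0.89 to -0.20 and -0.68 to -0.25. The difference between these medians was not tested. The matches are of letters and no measure of binding.

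Mitotic gene RNA was lower in M macrophages across every class of the machinery. Of the 56 members, 51 were lower and 0 higher at an adjusted p under 0.05 in limma. Of the 10390 genes tested 43.1% were called in either direction, 21.9% lower and 21.2% higher. The median log2 fold change (M minus control, on the log2(FPKM + 1) scale, which slightly understates changes of low genes) was -0.48 over the members and -0.01 over all genes tested. In plain FPKM the members in M stood at a median of 71.0% of their control mean, from 49.7% for Cenpm to 86.6% for Bub3. Summed over the 56 genes, the mean was 1407 FPKM in M and 2010 FPKM in control. The 3 M values lay below all 3 control values in 51 members, a pattern seen in 28.1% of all genes tested. All 56 passed the filter (1 FPKM or more on average), and the lowest member averaged 6.38 FPKM. In bulk RNA, fewer cycling cells and less of these RNAs per cycling cell cannot be told apart.

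**Figure D1:**
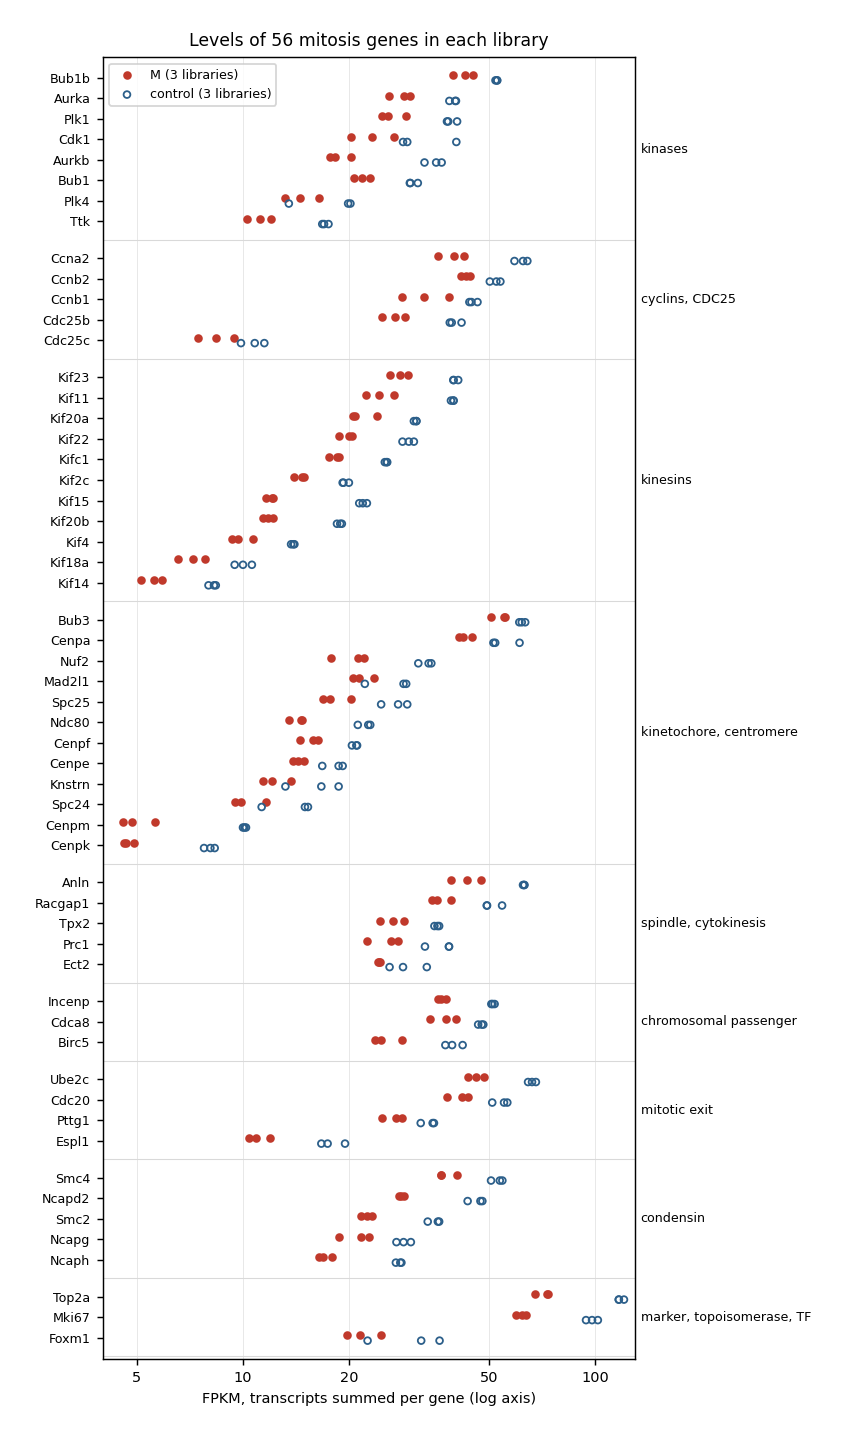
FPKM of each member (log axis) in the 3 M libraries (filled red) and the 3 control libraries (open blue), by role class and in order of mean level. M points lie left of all control points in 51 of the 56 genes; in Plk4, Mad2l1, Knstrn, Spc24 and Foxm1 the groups overlap.

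The libraries were alike in total FPKM (375467 to 380757 in M, 380087 to 390581 in control). Of 8 macrophage markers, 7 were tested, 5 were higher in M and 0 lower, against 21.2% higher and 21.9% lower of all genes tested. The median log2 fold change of the tested markers was 0.22, and Lyz2 averaged 6069 FPKM in M and 4610 FPKM in control. Mertk, a macrophage receptor for dying cells, was near 0, at 0.127 FPKM in M and 0.128 FPKM in control. Some defining markers of other cells were listed at 0 in all 6 libraries, among them Cd3e, Ms4a1, Ly6g, Mpo, Epcam and Kit. The summed level was 3.65 to 3.83 FPKM in M and 2.22 to 2.69 FPKM in control for 6 T cell markers (nearly all Lck), and 1.59 to 2.05 FPKM in M and 2.56 to 3.44 FPKM in control for 5 dendritic cell markers. For the B cell, neutrophil, fibroblast, epithelial, erythroid and mast cell lists it was at most 0.87 FPKM in any library. Lck was called higher in M (log2 fold change 0.46, limma adjusted p = 0.00233). The dendritic cell marker Siglech averaged 0.172 FPKM in M and 1.2 FPKM in control, and the neutrophil marker S100a8 0.623 FPKM and 0.0635 FPKM. In both the groups did not overlap, and both lay under the filter and were not tested. The part of these low levels in the mitotic results was not tested.

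Among the 8 kinases, 6 fell and 2 were not called (median log2 fold change -0.47). Aurkb (ENSMUSG00000020897), the Aurora kinase of the chromosomal passenger complex, fell most of them, with 18.3, 17.7 and 20.3 FPKM in M 1 to M 3 against 35.4, 36.7 and 32.8 FPKM in control 1 to 3 (log2 fold change -0.86 ± 0.0627 SE, limma adjusted p = 3.31e-05). By the means, M stood at 53.7% of control. Aurka, the Aurora kinase of centrosomes and spindle poles, had 26.0, 29.8 and 28.6 FPKM in M against 40.1, 40.3 and 38.6 FPKM in control (-0.48 ± 0.055, adjusted p = 0.000311). Plk1, which acts in mitotic entry, at kinetochores and in cytokinesis, had 24.8, 25.8 and 29.1 FPKM in M against 40.6, 38.3 and 38 FPKM in control (-0.54 ± 0.0625, 0.000347). In all 3 genes the groups lay well apart.

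The checkpoint kinases fell by unequal amounts. Ttk (MPS1, which starts the spindle checkpoint) was at 65.3% of control (adjusted p = 0.000168) and Bub1 at 71.8% (0.000221). Bub1b (BubR1, part of the mitotic checkpoint complex; ENSMUSG00000040084) was the most abundant of the kinases, and had 39.5, 42.7 and 45.0 FPKM in M against 52.7, 52.2 and 52.8 FPKM in control (80.6%, adjusted p = 0.00195). The control libraries lay within 1 FPKM of each other and the M libraries spread over more than 5 FPKM. Cdk1 and Plk4 were not called. Cdk1, the kinase that drives entry, had 20.3, 23.3 and 26.8 FPKM in M against 29.3, 28.5 and 40.4 FPKM in control (log2 fold change -0.46, 95% interval -0.85 to -0.06, adjusted p = 0.0671). Every M value was below every control value, and control 3 stood high. Plk4, which starts centriole duplication, had 13.2, 14.5 and 16.4 FPKM in M against 19.9, 13.5 and 20.2 FPKM in control (-0.25, interval -0.65 to 0.15, adjusted p = 0.265). Control 2 lay among the M values, and without it Plk4 was called (-0.43, adjusted p = 0.00786).

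All 5 cyclin and CDC25 genes fell (median -0.44). Ccna2 (cyclin A2, active from S phase to early mitosis) had 35.9, 39.7 and 42.6 FPKM in M against 62.5, 64.3 and 59.1 FPKM in control (log2 fold change -0.64 ± 0.0647 SE, limma adjusted p = 0.000165). Ccnb1 (cyclin B1, the main mitotic partner of CDK1) had 28.3, 32.7 and 38.4 FPKM in M against 44.6, 46.4 and 44.0 FPKM in control (-0.44 ± 0.0996, 0.0110). Ccnb2, the Golgi-associated B cyclin, had 41.7, 44.1 and 42.9 FPKM in M against 53.9, 52.5 and 50.3 FPKM in control (-0.28 ± 0.0415, 0.00126). Cyclin A2 thus stood at 63.6%, cyclin B1 at 73.6% and cyclin B2 at 82.2% of control. The phosphatase Cdc25b, which activates CDK1 at entry, was at 67.4% (adjusted p = 0.000234). Its relative Cdc25c was at 78.3% (0.0207), a call that was lost without M 1 (0.0519), M 2 (0.0592), control 1 (0.0706) or control 2 (0.0526).

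All 11 members of the kinesin class fell, with log2 fold changes from -0.82 to -0.40 (median -0.50) and no overlap between groups in any of them. Kif23 (MKLP1, the motor of centralspindlin at the midzone; ENSMUSG00000032254) had 26.2, 28 and 29.5 FPKM in M against 39.7, 39.6 and 40.9 FPKM in control (-0.51 ± 0.0487 SE, limma adjusted p = 0.000126). Kif11 (Eg5, which pushes the spindle poles apart) had 22.4, 24.3 and 26.9 FPKM in M against 39.6, 39.7 and 39.0 FPKM in control (-0.67 ± 0.0634, 0.00012). Kif20a (MKLP2, which carries the chromosomal passenger complex to the midzone) had 20.6, 20.8 and 24.0 FPKM in M against 31.1, 30.6 and 31.1 FPKM in control (-0.49 ± 0.0604, 0.000454). Within each of these motors the control values lay within 2 FPKM of each other, and every M value was below them. Kif15, which can stand in for Eg5 in keeping spindles bipolar, changed most: 54.6% of control (adjusted p = 7.43e-06). Kif2c (MCAK, a microtubule depolymerase) changed least, at 74.5% (0.000239). In between were the chromokinesins Kif22 (66.7%) and Kif4 (71.5%), Kif14 (67.3%) and Kif20b (62.5%), both of cytokinesis, the chromosome alignment motor Kif18a (71.8%) and the minus-end motor Kifc1 (71.6%).

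Of the 12 kinetochore and centromere genes 10 fell and 2 were not called (median -0.40), and the class held both ends of the range. Cenpm (a subunit of the constitutive centromere network; ENSMUSG00000068101) had 4.56, 4.85 and 5.64 FPKM in M against 10, 10.2 and 10.1 FPKM in control (log2 fold change -0.89 ± 0.0733 SE, limma adjusted p = 6.21e-05). Cenpk, of the same network, was at 58.7% of control (6.9e-05). At the other end Bub3, the WD40 partner of BUB1 and BubR1 (ENSMUSG00000066979) and the most abundant of the class, had 50.7, 55.3 and 55.5 FPKM in M against 62.0, 63.4 and 61.0 FPKM in control (-0.20 ± 0.045, 0.00802). Cenpa, the histone H3 variant that marks centromeres, had 41.1, 42.1 and 44.9 FPKM in M against 52.1, 61.1 and 51.5 FPKM in control (-0.35 ± 0.0703, 0.00514). The groups were apart in all 4 genes, with control 2 high for Cenpa.

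The NDC80 complex, which grips the microtubule end, fell in all 4 subunits. Nuf2 had 17.8, 21.2 and 22.1 FPKM in M against 34.3, 33.7 and 31.5 FPKM in control (log2 fold change -0.68 ± 0.0786 SE, limma adjusted p = 0.00035). Its partner Ndc80 was at 64.1% of control (7.33e-05) and Spc25 at 67.2% (0.00129). Spc24 stood at 74.4% (0.0372) with M 1 above control 2, and its call was lost without M 2 (0.107), M 3 (0.116), control 1 (0.113) or control 3 (0.106) and with no filter (0.0640). The motor Cenpe and the corona protein Cenpf fell to 79.0% (0.00347) and 74.5% (0.000546) of control. Mad2l1 (MAD2, the checkpoint protein that binds CDC20) was not called, with 21.4, 20.5 and 23.5 FPKM in M against 29.1, 22.2 and 28.6 FPKM in control (-0.27, 95% interval -0.52 to -0.02, adjusted p = 0.0796). Knstrn, a spindle and kinetochore adaptor, was not called either, with 13.7, 11.4 and 12.1 FPKM in M against 18.7, 13.2 and 16.7 FPKM in control (-0.35, interval -0.65 to -0.05, adjusted p = 0.0614). In both the low value of control 2 reached into the M range, and without control 2 both were called (0.00364 for Mad2l1 and 0.00502 for Knstrn).

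**Figure D2:**
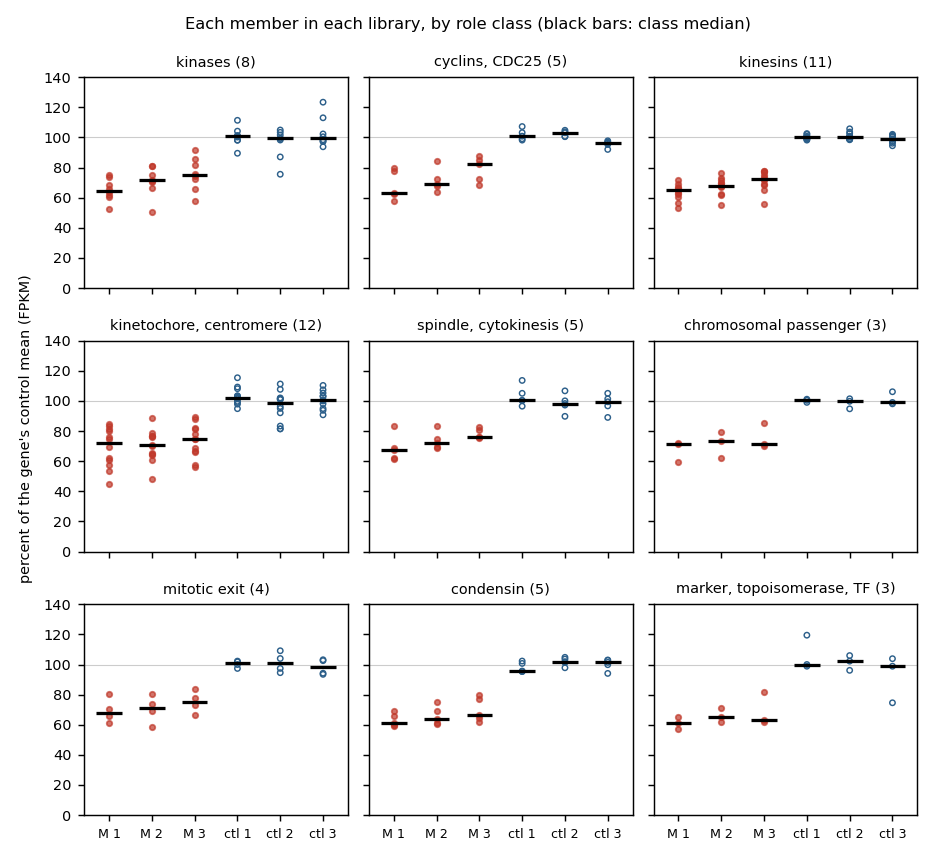
Each member in each library as a percentage of its own mean in control (FPKM), in 9 panels by role class, with M libraries (filled red) left of control libraries (open blue, ctl) and a black bar at the class median. Over all members the library medians were 65.4%, 69.9% and 74.5% in M 1 to M 3 and 99.3% to 101% in control.

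The 3 chromosomal passenger genes besides Aurkb fell. Birc5 (survivin) had 23.7, 24.6 and 28.3 FPKM in M against 39.3, 37.6 and 42.1 FPKM in control (64.4% by the means, limma adjusted p = 0.000355). Incenp, the scaffold that binds and activates Aurora B, had 36.6, 37.8 and 35.8 FPKM in M against 51.9, 51.2 and 50.8 FPKM in control (71.6%, 4.66e-05). Cdca8 (borealin) had 34.1, 37.8 and 40.4 FPKM in M against 47.7, 48.2 and 46.6 FPKM in control (78.8%, 0.00296). The kinase of the complex therefore fell to a lower share of control than its partners, which shows in the ratios within each library: Aurkb to Cdca8 was 0.537, 0.469 and 0.502 in M 1 to M 3 and 0.742, 0.762 and 0.704 in control 1 to 3.

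Spindle assembly and cytokinesis genes fell in all 5 cases (median -0.48). Anln (anillin, which organises the contractile ring) had 39.0, 43.3 and 47.6 FPKM in M against 63.1, 62.9 and 62.5 FPKM in control (log2 fold change -0.53 ± 0.0669 SE, limma adjusted p = 0.000511). Racgap1, the GTPase-activating partner of KIF23 in centralspindlin, had 34.5, 35.5 and 39.0 FPKM in M against 49.3, 54.5 and 49.4 FPKM in control (-0.48 ± 0.0599, 0.000487). Tpx2, the activator of Aurora A at the spindle, had 24.5, 26.7 and 28.7 FPKM in M against 35.7, 35.0 and 36.1 FPKM in control (-0.41 ± 0.0573, 0.000899). In these 3 genes M 1 was the lowest of the M libraries, and all M values were below all control values. Prc1, the cross-linker of midzone microtubules, was at 69.6% of control (0.00343). Ect2, the exchange factor that switches on RhoA for cytokinesis, was the weakest call, with 24.4, 24.5 and 24.2 FPKM in M against 33.3, 28.5 and 26.1 FPKM in control (-0.25, 95% interval -0.44 to -0.06, adjusted p = 0.0377). That call was lost when any library other than control 3 was left out (0.0564 to 0.0987), with no filter (0.0716) and with plain eBayes (0.0532). With the most abundant transcript alone the sign turned (0.29, 0.819).

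All 5 condensin genes fell (median -0.62). Smc4, an ATPase of the SMC dimer that all condensin shares, had 36.6, 36.5 and 40.7 FPKM in M against 50.7, 53.7 and 54.6 FPKM in control (71.6%, limma adjusted p = 0.000311). Its partner Smc2 had 21.6, 22.5 and 23.3 FPKM in M against 33.5, 35.8 and 36.1 FPKM in control (64%, 4.24e-05). Ncapd2, a regulatory subunit of condensin I, had 27.8, 28.2 and 28.6 FPKM in M against 47.3, 47.9 and 43.5 FPKM in control (61.0%, 2.28e-05). The other condensin I subunits were Ncaph at 61.5% (2.48e-05) and Ncapg at 73.6% (0.00241). M libraries of Ncapd2 lay within 1 FPKM of each other.

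The 4 genes of mitotic exit fell as well (median -0.45). Ube2c (UBCH10, the ubiquitin-conjugating enzyme of the APC/C; ENSMUSG00000001403) had 43.6, 45.9 and 48.3 FPKM in M against 66.3, 64.6 and 68.0 FPKM in control (log2 fold change -0.52 ± 0.0463 SE, limma adjusted p = 8.52e-05). Cdc20, the APC/C activator, had 38.1, 43.5 and 42.0 FPKM in M against 55.2, 56.4 and 51.1 FPKM in control (-0.39 ± 0.0597, 0.00143). Pttg1 (securin) had 27.3, 24.9 and 28.4 FPKM in M against 34.6, 32.0 and 34.9 FPKM in control (-0.32 ± 0.0589, 0.00328). Espl1 (separase, the protease that securin holds back and that cuts cohesin) was at 61.9% of control (0.000261), a lower share than the 79.4% of securin. The ratio of Pttg1 to Espl1 was 2.50, 2.39 and 2.39 in M 1 to M 3 and 1.98, 1.64 and 2.09 in control 1 to 3, so the libraries of the groups did not overlap.

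The highest levels of the set belonged to Top2a (topoisomerase II alpha, which untangles sister chromatids; ENSMUSG00000020914) and Mki67 (Ki-67, the coat of mitotic chromosomes and a common marker of cycling cells; ENSMUSG00000031004). Top2a had 67.5, 72.9 and 73.4 FPKM in M against 117, 121 and 117 FPKM in control (log2 fold change -0.73 ± 0.043 SE, limma adjusted p = 1.28e-05). Mki67 had 59.8, 63.8 and 62.2 FPKM in M against 98.2, 94.4 and 102 FPKM in control (-0.66 ± 0.044, 2.36e-05). Both groups were tight and far apart. Foxm1, the transcription factor that switches on many of the other members in G2, was not called: it had 19.7, 21.5 and 24.7 FPKM in M against 36.2, 32.1 and 22.6 FPKM in control (-0.42, 95% interval -0.88 to 0.03, adjusted p = 0.119). Control 3 lay among the M values, and without it Foxm1 was called (-0.61, 0.00489).

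Medians by class ran from -0.66 for the last 3 genes and -0.62 for condensin to -0.40 for the kinetochore, with the kinesins at -0.50, the spindle and cytokinesis genes at -0.48, the kinases and passenger genes at -0.47, the exit genes at -0.45 and the cyclins and CDC25 genes at -0.44. The ranges of the classes overlapped, and differences between classes were not tested.

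Ratios between genes that work as partners, set out per library, give a finer view; the pairs were picked with the values in view and are a description. Aurkb to Incenp averaged 0.512 ± 0.0493 in M and 0.682 ± 0.0357 in control (SD, n = 3 each). Bub1 to Bub3 averaged 0.405 ± 0.00969 in M and 0.489 ± 0.00759 in control, and Bub1b to Bub3 0.787 ± 0.021 in M and 0.847 ± 0.0216 in control. Smc2 to Smc4 averaged 0.593 ± 0.0223 in M and 0.663 ± 0.00359 in control. These ratios were lower in every M library than in every control library, and that of Ncapg to Ncaph was higher, at 1.23 ± 0.0759 in M and 1.03 ± 0.0664 in control. Groups overlapped for Kif23 to Racgap1, the centralspindlin pair, with 0.769 ± 0.0169 in M and 0.787 ± 0.0528 in control. They also overlapped for Ndc80 to Nuf2, with 0.706 ± 0.0481 in M and 0.674 ± 0.0504 in control, and for Aurka to Tpx2, with 1.06 ± 0.0615 in M and 1.12 ± 0.0422 in control. Over all pairs set out, the ratio was lower in M without overlap in 5 and higher in 2, and the groups overlapped in 8. The lower pairs are not separate results: Aurkb is in both Aurkb to Incenp and Aurkb to Cdca8, and Bub3 is in both checkpoint pairs. How often other pairs of genes lie apart in this way was not tested. No p is given for these ratios.

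**Figure D3:**
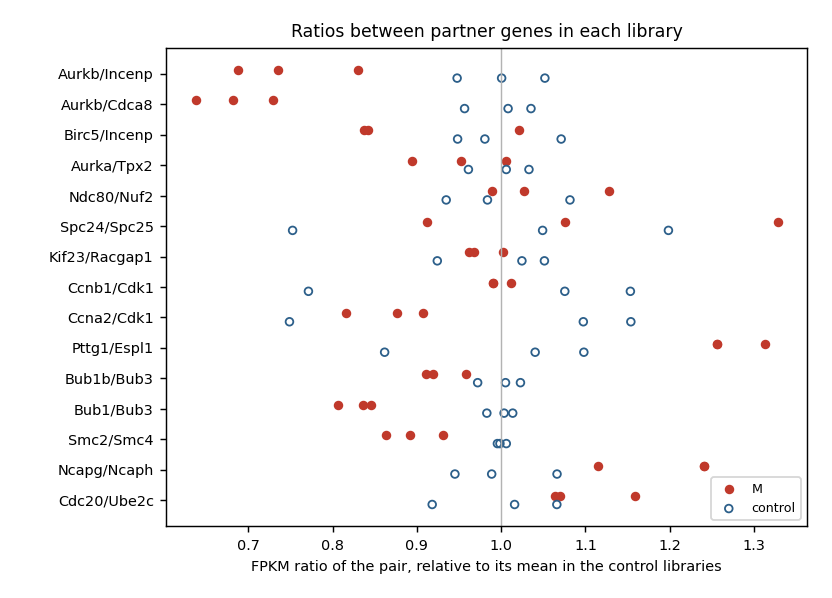
FPKM ratio of each partner pair in each library, divided by the mean ratio of the control libraries, for M (filled red) and control (open blue). The M points of Aurkb/Cdca8, Aurkb/Incenp and Bub1/Bub3 lie left of all control points, and those of Pttg1/Espl1 and Ncapg/Ncaph right of them. In 8 pairs the groups overlap.

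The mRNA table lists 141 transcripts for the 56 members, of which 16 were at 0 in all 6 libraries and 90 averaged at least 1 FPKM. Fitted transcript by transcript, 46 of the 90 were lower and 0 higher in M, against a background of 9.56% of 16851 transcripts called lower and 9.18% called higher. The other 44 were not called, and several belong to genes whose sums were steady. Kif20a is the plainest case: its main transcript had 13.5, 20.7 and 11.1 FPKM in M 1 to M 3 against 31, 12.3 and 30.8 FPKM in control 1 to 3. The other Kif20a transcript had 7.13, 0.0168 and 12.8 FPKM in M against 0.147, 18.3 and 0.361 FPKM in control. Where either transcript was low the other was high, so that the split varied within each group while the sum did not. Both Cdc25b transcripts did the same, with 9.76, 21.1 and 23.8 FPKM in M against 14.5, 33.4 and 28.7 FPKM in control for the main transcript.

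For 3 of the less stable genes the transcripts show which libraries stood apart. In Cdk1 the main transcript had 20, 23.1 and 19.2 FPKM in M against 26.2, 28.1 and 23.3 FPKM in control (log2 fold change -0.30, limma adjusted p = 0.0939). A further Cdk1 transcript had 0.101, 0.0919 and 7.54 FPKM in M against 2.75, 0.192 and 16.7 FPKM in control. The excess of control 3 lay in this transcript, as the main transcript was at its lowest control value there. In Ect2 the leading transcripts traded places in control 1, where they stood at 1.84 and 30.9 FPKM, against 21.5 and 4.95 FPKM in control 2. In Mad2l1 the low total of control 2 lay in the main transcript, which had 15.6, 14.1 and 16.4 FPKM in M against 20.8, 10.9 and 20.7 FPKM in control. The sources used here do not say how fragments shared by transcripts were divided, and the part of that step in these splits was not tested.

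**Figure D4:**
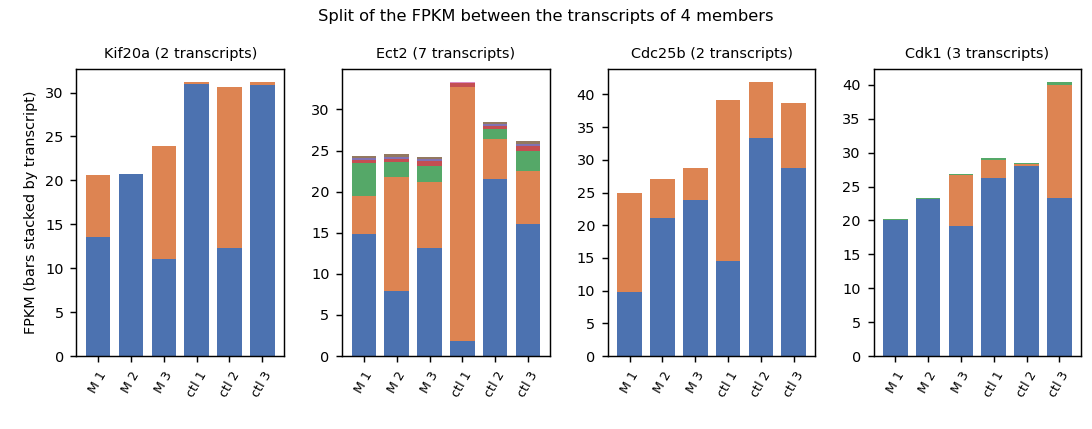
FPKM of Kif20a, Ect2, Cdc25b and Cdk1 in M 1 to M 3 and control 1 to 3 (ctl), stacked by transcript with colours in order of the transcript's total. The split between transcripts varied within both groups, while the height of the bars was lower in M; in Cdk1 the second transcript reached 16.7 FPKM in control 3.

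Most further genes of the kinetochore, of the spindle and of mitotic entry were lower too, and the rest of these were not called. Of 34 further kinetochore and centromere genes 27 were lower and 0 higher (median -0.41), against the background of 21.9% lower. Cenpb, the centromere DNA-binding protein, was at 84.8% of control (limma adjusted p = 0.0025) and Pmf1, of the MIS12 complex, at 77.3% (0.00142). Of 25 further spindle and cytokinesis genes 20 were lower and 0 higher (median -0.42), with Ckap5, a microtubule polymerase, at 87.1% (0.00702) and Numa1, which focuses spindle poles, at 87.4% (0.00407). Of 13 regulators of mitotic entry 11 were lower and 0 higher (median -0.54). Cks1b, the small CDK subunit, had 57.6, 63.3 and 70.1 FPKM in M against 84.1, 83.1 and 81.3 FPKM in control (0.00283), and the mitotic kinase Pbk was at 60.6% (2.99e-05). Wee1, the kinase that holds CDK1 off and a gene picked after its value was seen, fell to 46.2% (1.84e-05), so that the inhibitor of entry was lower along with its activators Cdc25b and Cdc25c.

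Of 15 APC/C genes 3 were lower and 1 higher (median -0.08), a share of lower genes near the 21.9% of all genes tested. Anapc5 stood at 86.6% of control (limma adjusted p = 0.00211), Anapc13 at 82.8% (0.0189, lost without M 3, control 1 or control 3 at 0.0546 to 0.0646) and Fbxo5 (EMI1, the APC/C inhibitor made in S and G2) at 53.0% (6.89e-06), while the small subunit Cdc26 rose to 123% (0.0129). Anapc13 and Fbxo5 were picked after their values were seen. The other 11 were not called. Of 16 tested genes of cargo transport kinesins, with light chains and an adaptor counted in, 7 were higher, against a background of 21.2%, and 1 was lower (median 0.12). Kif1b, a motor of vesicles and mitochondria, had 19.8, 19.9 and 18.9 FPKM in M against 13.3, 14.6 and 13.7 FPKM in control (log2 fold change 0.46 ± 0.05 SE, 0.000233). With its most abundant transcript alone the value of Kif1b was -0.03 (0.891). Each of the 11 members of the mitotic kinesin class was lower, as was the motor Cenpe of the kinetochore class. Of the kinesins in the further spindle list, Kif18b (74.8%) and Kif24 (56%) were lower and Kif2a (106%, 0.25) was not called. The abundant Kif1c stood at 110% (0.0226), a call lost without M 2 (0.0563), M 3 (0.0709), control 1 (0.0749) or control 3 (0.0540), and Kifap3, the kinesin-2 adaptor, fell to 83.1% (0.00928).

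**Figure D5:**
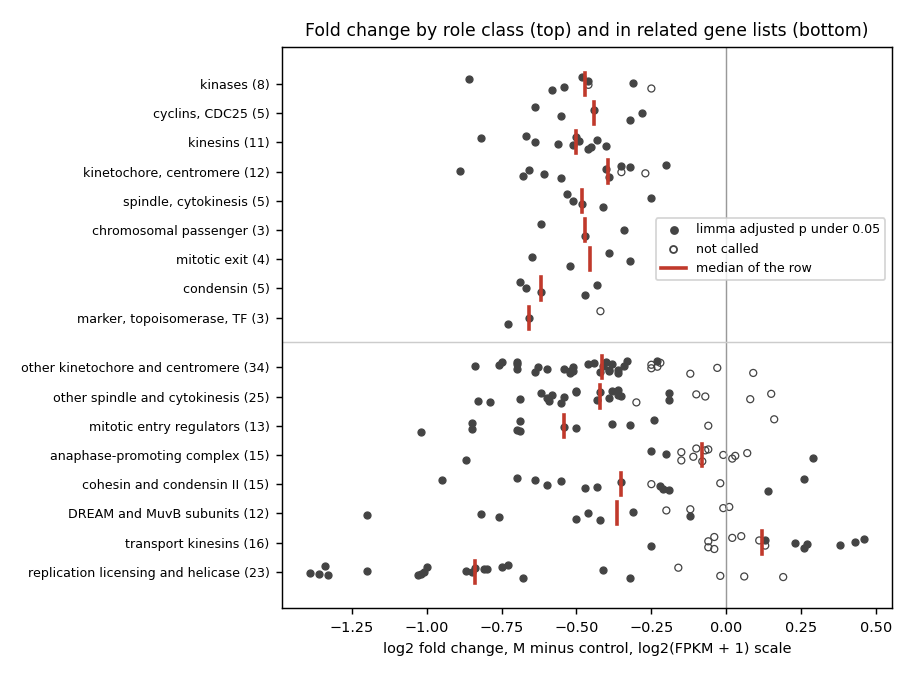
Log2 fold change (M minus control, log2(FPKM + 1) scale) of each gene by role class of the 56 members (top) and in 8 related gene lists (bottom), with tested genes in brackets, filled where the limma adjusted p was under 0.05, and a red bar at the median. All members lie left of 0, the APC/C and transport kinesin medians lie at -0.08 and 0.12, and the replication list lies furthest left at -0.84.

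Replication genes, which act before mitosis in the cycle, are the closest comparison. Of 23 licensing and helicase genes 19 were lower and 0 higher, against 21.9% lower and 21.2% higher of all genes tested. Their median was -0.84 against -0.48 for the 56 mitotic genes, and the difference between the lists was not tested. Mcm3, a subunit of the replicative helicase, had 25.5, 27.5 and 25.6 FPKM in M against 52.7, 54.5 and 53.8 FPKM in control (limma adjusted p = 2.88e-06), and the licensing factor Cdt1 was at 58.6% of control (2.38e-05). Subunits of the origin recognition complex were split, with Orc1 at 38.1% (4.47e-05) and Orc2 at 98.2% (0.764), both picked after their values were seen.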

How the data were processed

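The authors deposited FPKM per Ensembl transcript for mRNA and for lncRNA in 3 M and 3 control libraries, on build mm9 per the submitters' processing notes; the sources used here give no aligner, quantifier, annotation release or filter. FPKM hold no read counts, so no depth, interval or floor in reads is given: values under 0.1 FPKM in transcripts of symbols with 1 transcript left the same step (within 0.1% of a common ratio to control 1) in only 10 to 22 of 282 to 322 transcripts of each other library. Transcripts were summed per symbol, genes averaging at least 1 FPKM were kept, and log2(FPKM + 1) was fitted with limma 3.58.1 in R 4.3.3 (a two-sided test of the group term alone, with eBayes set to trend and robust). Adjusted p-values are Benjamini-Hochberg values over 10390 genes, or 16851 transcripts for the transcript fit, called under 0.05. The fit was tested on simulated data. Errors are SE of the fit or SD, n = 3. Promoter letters came from RefSeq windows. Sums and ratios used pandas 2.3.3 and figures matplotlib 3.10.9. The members, role classes and lists were chosen with earlier results of these data known. Per-library values are given for the 3 most abundant members of each class, members not called and the extremes; from each related list the 2 most abundant called genes and any called against the rest were named, and other genes were picked after their values were seen. The alternatives were other pseudocounts, no filter, other scalings, a replicate block, plain eBayes, the most abundant transcript alone, and each library left out.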

Additional observations from a re-analysis of the deposited data

How the results depend on the processing

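Over 14 alternatives 42 to 54 members were called lower and 0 higher, and the median of the members lay between -0.54 and -0.43. Leaving out 1 library at a time gave 48 to 52 called. Calls held in every alternative for 42 members. With only the most abundant transcript of each gene, 42 members were called, the cyclins and CDC25 genes had 3 called, the spindle and cytokinesis genes 2, and the APC/C list 1 lower; the fold changes (log2) of Ect2 and the transport kinesin Kif1b turned round, to 0.29 (adjusted p = 0.819) and -0.03 (0.891). The same setting ended the calls of Aurka, Cdc25b, Cdc25c, Kif20a, Prc1, Pttg1, Racgap1 and Spc24. Cdc25c and Spc24 have 1 transcript each, so their fold changes stayed at -0.32 and -0.39 and only the adjusted p moved (0.0501 and 0.0718). In the related lists it ended the calls of Anapc5 (0.383), Ckap5 (0.104), Kif1c (0.221), Wapl (0.0853) and Anapc13 (0.062). For the genes with several transcripts the cause was not tested. Plain eBayes ended the calls of Ect2 (0.0532) and Rbbp4 (0.0553). The fold changes of E2f4 and Orc2, never called, crossed 0 with a library left out (-0.02 to 0.04 for E2f4, -0.07 to 0.03 for Orc2, and -0.01 for E2f4 without control 2). The member transcripts called lower numbered 33 to 42 with 1 library left out, and 34 to 46 otherwise. Pseudocounts of 0.1 and 5 and both scalings changed no member's call. Deviations of libraries with the same replicate number correlated at 0.0664, 0.0052 and -0.0347, so the numbers were not taken as pairs; with the replicate block 54 members were called lower, Cdk1 (0.00374), Knstrn (0.0095) and Mad2l1 (0.0253) being added. No depth in reads is known, so precision rests on 3 libraries a group.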

Other observations

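Of 15 genes of cohesin and condensin II, 11 were lower and 2 higher (median log2 fold change -0.35), against a background of 21.9% of all tested genes lower and 21.2% higher. Rad21, the cohesin subunit that separase cuts, had 63.0, 64.8 and 65.6 FPKM in M against 74.5, 75.8 and 74.7 FPKM in control (limma adjusted p = 0.0016). Esco2 (picked after its value was seen), the acetyltransferase that fixes cohesion in S phase, was at 48.5% of control (8.62e-06), whereas its relative Esco1, which acts through the whole cycle, rose to 121% (0.00841). Wapl, which releases cohesin from chromatin, stood at 111% (0.0121), a call lost without M 2 (0.0525) and with the most abundant transcript alone (0.0853).

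Subunits of the complexes that bind CHR elements went in part the same way, with 8 of 12 genes of DREAM and MuvB lower and 0 higher (median -0.36), against 21.9% and 21.2% of all genes tested. Mybl2 (B-MYB, the partner of MuvB in cycling cells; picked after its value was seen) had 4.92, 4.46 and 4.94 FPKM in M against 12.1, 12.8 and 12 FPKM in control (log2 fold change -1.20 ± 0.0584 SE, limma adjusted p = 5.6e-06). Tfdp1, the dimer partner of E2F, was at 74.4% (0.000383), and Rbbp4 at 91.8% (0.0319), a call lost in 5 of the 6 fits with a library left out (0.0548 to 0.0927, all but that without control 1). E2f4, the repressor E2F of DREAM, picked likewise, was at 101% (0.849).

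Within the M group M 1 held the lowest value in 46 of 56 and M 3 the highest in 44, where M 1 was lowest in 32.8% and M 3 highest in 35.0% of all genes tested. The related lists varied: M 1 was lowest and M 3 highest in 11 and 10 of 13 mitotic entry regulators, 19 and 20 of 34 further kinetochore genes, 13 and 13 of 25 further spindle genes, 10 and 7 of 15 cohesin and condensin II genes, and 7 and 5 of 23 replication genes. The same counts were 5 and 7 of 15 APC/C genes, 3 and 4 of 12 DREAM and MuvB genes, and 4 and 7 of 16 transport kinesin genes. In the control group the lowest value fell to control 1, 2 and 3 in 11, 20 and 25 members. Mitochondrial transcripts took 3.91%, 4.01% and 3.41% of the FPKM in M 1 to M 3, and 3.54%, 3.81% and 4.5% in control 1 to 3. M 3 had the lowest of these shares in the M group, and a link to the order of the M libraries in the members was not tested.

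The lncRNA table holds Smc2os, named as the opposite-strand transcript of Smc2, with 0.83, 0.157 and 0.757 FPKM in M against 0.549, 0.298 and 0.792 FPKM in control. The groups overlapped and it was not tested; the sources used here do not say whether the libraries kept strand.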
